A study of Mus musculus with 16 samples.

Results

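Chemokines are small secreted proteins that direct the movement of leukocytes. The table of gene levels in oxLDL-treated mouse peritoneal macrophages (PM) was searched for every gene of this system. Members were chosen by symbol alone, as the genes named Ccl, Cxcl, Ccr, Cxcr or Ackr with a number, together with *Cx3cl1*, *Cx3cr1*, *Xcl1* and *Xcr1*. The rule took 60 of the 48432 genes in the table, of which 38 encode ligands, 18 encode signalling receptors and 4 encode atypical receptors. Of these, 23 reached 1 TPM (transcripts per 1000000 of all transcripts) in at least 1 group of samples.

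The study asked how gain and loss of LDAH, a lipid droplet-associated hydrolase, change macrophages that have been loaded with lipid. It sequenced the messenger RNA of 16 samples in 4 groups of 4. LDAH-Tg mice overexpressed *Ldah* from a transgene driven by regulatory sequence of the mouse *Csf1r* gene, which is active in macrophages and granulocytes, so the transgene is not restricted to PM. The genotype label of their WT controls names ApoE beside LDAH. Whether the sequenced LDAH-Tg mice and their controls lacked *Apoe* is not given in the sources used here, and *Apoe* was listed at 7947 to 10404 TPM in all 4 groups. LDAH-KO mice lacked part of the *Ldah* coding sequence in all cells, and had WT controls of their own. All 4 groups carry the strain label C57BL/6J, although the transgene was first made in mice of mixed background. PM of every group were drawn out 5 days after 3% thioglycolate, an irritant that recruits leukocytes to the peritoneum, and were cultured with oxidised low-density lipoprotein (oxLDL) at 50 µg/ml for 48 h in medium with 1% FBS. No sample without oxLDL is analysed here, and the ages of the mice are not given in the sources used here.

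The table holds 1 value per gene and group, which is the authors' mean of 4 samples in TPM, a unit scaled to transcript length and to the total of each column. Values of single samples and sequencing depth were not analysed here, so no value below has an SD, an interval or a test, and no difference could be set against the spread between samples. Ratios are given as log2 of the means after adding 0.5 TPM, for genes with a mean of at least 1 TPM over the pair of groups compared and no group listed at 0. A difference is counted when this ratio passes a factor of 1.5 in either direction, and this count is a description. *Ldah* itself had a mean of 124 TPM in LDAH-Tg PM against 28.5 TPM in their controls, and of 27.9 TPM in LDAH-KO PM against 44.5 TPM. Its log2 ratios were 2.10 and -0.67, in the directions of the labels, and the values are for the gene as a whole, so they do not show the deleted exons apart. Of the macrophage genes, *Cd68* was at 3023 to 4959 TPM and *Csf1r* at 94.2 to 108 TPM over the 4 groups. Others of the 7 genes on that list were less even, such as *Adgre1*, at 33.1 and 22.4 TPM in the first line (controls, then LDAH-Tg) and 146 and 147 TPM in the second, and *Itgam*, at 144 and 110.2 TPM and at 273 and 217 TPM. *Lyz2*, an abundant macrophage gene, was listed at 0 in 3 groups and at 10105 TPM in LDAH-Tg PM, so a value of 0 is reported below as listed and is not read as absence.

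Chemokines are named after the spacing of their first cysteines, as CC, CXC, CX3C and XC chemokines, and act on receptors coupled to G proteins. Inflammatory chemokines such as CCL2 and CXCL1 are made on demand and recruit monocytes or neutrophils, whereas homeostatic chemokines such as CXCL12 and CXCL13 place cells within tissues. In atherosclerosis, chemokines bring monocytes into the artery wall, where they become macrophages and foam cells. Many of the genes lie in clusters of related copies, and a number of the inflammatory ones are induced through NF-kB, a transcription factor of the inflammatory response, or through interferon.

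Start-site sequence is shown for *Cxcl1*, *Cxcl12* and *Cxcl13*, the ligands lower in LDAH-KO PM that had a window, and for *Cxcl2* and *Cxcl10*, which lie on the chromosome of *Cxcl1* and were lower by less than the factor used below or too low for a ratio. RefSeq windows of the GRCm38.p6 build, from 250 bases before to 50 bases after an annotated start, were at hand for 45 of the 60 members and for 16 of the 23 that reached 1 TPM. Capitals mark the letters GGNNTTTCC, an NF-kB site, or GAAANNGAA, an interferon-stimulated response element, on either strand. *Cxcl1* and *Cxcl2* encode neutrophil attractants, and *Cxcl10* encodes an interferon-induced attractant of T cells. *Cxcl12* and *Cxcl13* encode homeostatic chemokines, and their windows hold neither set of letters.
Cxcl1: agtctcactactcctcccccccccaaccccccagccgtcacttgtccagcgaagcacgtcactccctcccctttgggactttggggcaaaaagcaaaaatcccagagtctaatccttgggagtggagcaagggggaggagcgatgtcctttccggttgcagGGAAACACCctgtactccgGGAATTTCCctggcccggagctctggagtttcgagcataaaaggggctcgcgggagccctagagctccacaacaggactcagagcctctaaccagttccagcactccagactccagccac
Cxcl2: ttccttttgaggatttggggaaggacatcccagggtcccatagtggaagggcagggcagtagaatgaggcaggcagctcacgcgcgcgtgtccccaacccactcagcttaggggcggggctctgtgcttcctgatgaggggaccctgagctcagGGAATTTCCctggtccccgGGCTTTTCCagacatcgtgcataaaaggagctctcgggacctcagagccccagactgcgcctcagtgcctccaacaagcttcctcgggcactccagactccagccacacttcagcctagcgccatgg
Cxcl10: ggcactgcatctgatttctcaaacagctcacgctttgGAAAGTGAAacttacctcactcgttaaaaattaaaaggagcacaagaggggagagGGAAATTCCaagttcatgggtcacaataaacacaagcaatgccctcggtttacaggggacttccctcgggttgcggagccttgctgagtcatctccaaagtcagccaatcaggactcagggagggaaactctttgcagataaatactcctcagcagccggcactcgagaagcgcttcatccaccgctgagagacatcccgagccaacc
Cxcl12: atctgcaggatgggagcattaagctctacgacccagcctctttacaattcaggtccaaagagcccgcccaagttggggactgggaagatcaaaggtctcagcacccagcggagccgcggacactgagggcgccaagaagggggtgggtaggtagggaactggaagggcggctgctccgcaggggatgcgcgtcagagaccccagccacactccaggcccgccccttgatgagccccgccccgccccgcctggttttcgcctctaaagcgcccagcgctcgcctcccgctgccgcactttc
Cxcl13: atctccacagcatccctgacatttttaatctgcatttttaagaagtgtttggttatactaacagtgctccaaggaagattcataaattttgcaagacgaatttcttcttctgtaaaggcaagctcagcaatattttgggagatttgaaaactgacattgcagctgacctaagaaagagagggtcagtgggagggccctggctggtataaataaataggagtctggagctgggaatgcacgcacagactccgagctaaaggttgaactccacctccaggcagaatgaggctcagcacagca

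The windows lie at chr5:90890995-90891294 (+) for *Cxcl1*, chr5:90903649-90903948 (+) for *Cxcl2* and chr5:92348840-92349139 (-) for *Cxcl10*. Those of *Cxcl12* and *Cxcl13* are chr6:117168285-117168584 (+) and chr5:95956689-95956988 (+), and all are printed 5′ to 3′ along the strand of the gene. The NF-kB letters occurred at -70 to -62 in *Cxcl1* and, on the other strand, at -89 to -81, counted from the start site. In *Cxcl2* they occurred at -96 to -88 and -77 to -69. *Cxcl10* had them at -158 to -150 on the other strand, with the interferon letters at -213 to -205. NF-kB letters were present in 4 of the 16 members that reached 1 TPM and had a window (*Ccl9*, *Cxcl1*, *Cxcl2* and *Cxcl10*). Over the genome, 5.82% of 32851 windows of the same length held them. Interferon letters were present in 4 of these 16 members (*Ccl3*, *Cxcl10*, *Cxcl14* and *Cxcr1*), against 8.56%. The members were counted by gene, over 19 windows, and the genome by window, so the shares differ in unit. *Cxcl13* had the letters TATAAA at -46 to -41, which 13.6% of windows hold. These are matches of letters and not measured binding.

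A few CC chemokines made up most of the chemokine RNA in all 4 groups. *Ccl6* (chromosome 11 of GRCm38, 83587882 to 83593087), a CC chemokine that macrophages express, was the highest member in every group. It was at 1011 TPM in the controls of LDAH-Tg and 758 TPM with the transgene, and at 1294 TPM in the controls of LDAH-KO and 1259 TPM in the knockout, which is 54.5% to 63.0% of all ligand TPM. *Ccl9*, the neighbouring gene, was at 159 and 119.9 TPM in the first pair, with the controls given first, and at 506 and 482 TPM in the second. *Ccl3*, which encodes the macrophage inflammatory protein MIP-1α, was at 309 and 288 TPM, and at 154 and 138 TPM. *Ccl4*, which encodes the related MIP-1β, was at 107 and 117 TPM and at 35.6 and 35.7 TPM. *Ccl6*, *Ccl3* and *Ccl9* together held 83.8% to 94.0% of ligand TPM. Their order was not fixed, since *Ccl3* was above *Ccl9* in LDAH-Tg PM and their controls and below it in LDAH-KO PM and theirs.

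*Ccr1*, the receptor for CCL3, CCL6 and CCL9, was the highest receptor gene, at 119.5 and 88.4 TPM in the controls and LDAH-Tg PM, and at 207 and 199 TPM in the other line. *Cxcr4*, the receptor for CXCL12, was at 66.7 and 66.5 TPM in the first pair and 54.3 and 52.6 TPM in the second. Together they held 93.3% to 94.5% of receptor TPM, so the receptor for the most abundant ligands was also the most abundant receptor. *Cxcr1*, a receptor for neutrophil attractants, was at 2.72 and 1.94 TPM, and at 3.12 and 2.33 TPM. *Cxcr3*, the receptor for CXCL10, was at 1.00 and 1.05 TPM, and at 0.574 and 0.430 TPM. Of the 22 receptor genes, 17, *Ccr2* and *Cx3cr1* among them, stayed under 1 TPM in every group. *Ccr2*, which marks recruited monocytes, was at 0.247 and 0.262 TPM, and at 0.377 and 0.453 TPM.

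**Figure D1:**
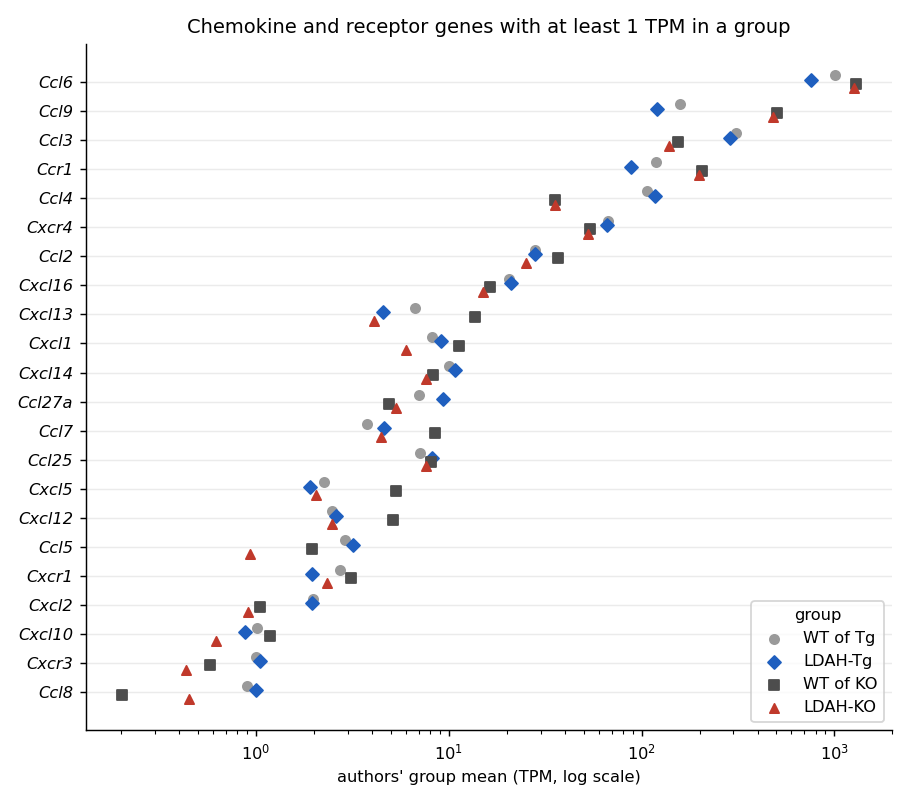
Mean TPM of 22 of the 23 members that reached 1 TPM in at least 1 group, on a log axis, with 1 point per group (WT of Tg and WT of KO are the controls of each line); no error bars can be drawn because the table holds group means. *Ccl6* lies at 758 to 1294 TPM, and at the lower end *Ccl8* lies at 0.202 to 1.00 TPM and *Cxcr3* at 0.430 to 1.05 TPM.

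The remaining 14 ligands that reached 1 TPM were far lower, with *Ccl2* the highest of them. *Ccl2*, whose protein attracts monocytes through CCR2, was at 27.9 and 28.1 TPM in controls and LDAH-Tg PM, and at 37.0 and 25.05 TPM in controls and LDAH-KO PM. *Cxcl16*, which encodes a transmembrane chemokine that also serves as a scavenger receptor for oxidised lipid, was at 20.4 and 20.9 TPM, and at 16.3 and 15.0 TPM. Among chemokine genes of skin and gut, *Cxcl14* was at 10.03 and 10.8 TPM, and at 8.31 and 7.60 TPM. *Ccl25* was at 7.04 and 8.22 TPM, and at 8.10 and 7.62 TPM. *Ccl27a* was at 7.01 and 9.35 TPM, and at 4.87 and 5.30 TPM, so these genes lay between 4.87 and 10.8 TPM in every group. *Cxcl2* was at 1.97 and 1.94 TPM in the first pair, and at 1.05 and 0.902 TPM in the second. *Ccl8*, at 0.895 and 1.00 TPM and at 0.202 and 0.447 TPM, was the member just above the limit of 1 TPM, and *Ccl20*, with a highest value of 0.693 TPM, was just below it.

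A further 37 members were under 1 TPM in all 4 groups. Of these, 11 passed 0.1 TPM in some group: *Ccl20*, *Ccr2*, *Ccl12*, *Cxcr2*, *Ccl24*, *Ccr7*, *Cx3cl1*, *Ccr9*, *Ccl22*, *Ccl28* and *Ccr3*. Another 17 were at most 0.1 TPM, and 9 were listed at 0 in every group, including *Ccl19*, *Ccl21a*, *Ccl21b* and *Ccl27b*, which have near-identical copies on chromosome 4 that reads can be split between. Of all 60 members, 12 were listed at 0 in 1 to 3 groups, with a highest value elsewhere of 0.363 TPM for *Ccl12*, so no member that reached 1 TPM in one group was listed at 0 in another.

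In LDAH-KO PM, 6 chemokine ligands were lower than in WT controls by the factor of 1.5, and no member was higher by it. The lower genes were *Cxcl13*, *Cxcl5*, *Cxcl12*, *Cxcl1*, *Ccl7* and *Ccl5*. They are 31.6% of the 19 members with a ratio, while 1.83% of the 11289 genes with a ratio were lower by the factor and 0.39% were higher. All 6 were under 20 TPM, where they were 6 of 12 members, against 3.32% of all genes at that level. The median log2 ratio of the members was -0.12 and that of all genes was -0.08, and 16 of the 19 members were below 0, as were 66.6% of all genes.

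The B-cell attractant gene *Cxcl13* (chromosome 5, 95956951 to 95961068) was at 13.6 TPM in controls and 4.08 TPM in the knockout, which gave the lowest log2 ratio of all members, -1.63. *Cxcl5* (chromosome 5, 90759360 to 90761624), whose protein attracts neutrophils through CXCR2, was at 5.32 and 2.05 TPM (log2 ratio -1.19). *Cxcl1* (chromosome 5, 90891241 to 90893115), for the same receptor, was at 11.4 and 6.02 TPM (log2 ratio -0.86). Summed over the CXCR2 ligands, the controls had 17.8 TPM and LDAH-KO PM had 9.01 TPM. Of the same receptor group, *Cxcl2* was near 1 TPM and had a log2 ratio of -0.14 without the limit on level. The windows of *Cxcl1* and *Cxcl2* both hold the NF-kB letters at 2 places.

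*Cxcl12* (chromosome 6, 117168535 to 117181367), the CXCR4 ligand that retains cells in marrow and is typically made by stromal cells, was at 5.10 TPM in controls and 2.48 TPM in the knockout (log2 ratio -0.91). *Ccl7* (chromosome 11, 82045712 to 82047525), a monocyte attractant, was at 8.51 and 4.46 TPM (log2 ratio -0.86). *Ccl5* (chromosome 11, 83525778 to 83530518), a T-cell and monocyte attractant, was at 1.94 and 0.928 TPM (log2 ratio -0.77), and was the member just past the factor. *Ccl2*, with a log2 ratio of -0.55, was the member just short of it, and *Ccl2* and *Ccl7* are neighbours that act on the same receptor. Summed over the CCR2 ligands, the controls had 45.9 TPM and LDAH-KO PM had 29.96 TPM. *Cxcl10* was at 1.18 and 0.622 TPM, below the mean of 1 TPM needed for a ratio, and without that limit its log2 ratio was -0.58. Members under the limit went both ways. *Ccl8*, which is summed with the CCR2 ligands, was at 0.202 and 0.447 TPM, with a log2 ratio of 0.43. *Ccl20* had -0.53 and *Cx3cl1* had -0.24.

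The abundant chemokines and all receptor genes with a ratio stayed within the factor in LDAH-KO PM. Log2 ratios were -0.04 for *Ccl6*, -0.07 for *Ccl9*, -0.16 for *Ccl3* and 0.004 for *Ccl4*. Among receptor genes they were -0.05 for *Ccr1*, -0.04 for *Cxcr4* and -0.36 for *Cxcr1*. The sum over all ligands was 2114 TPM in controls and 1999 TPM in the knockout, and that over receptors was 279 and 270.1 TPM. The central 90% of all genes lay between log2 ratios of -0.40 and 0.21, and 7 of the 19 members lay below this range, the lower 6 and *Ccl2*, with 0 above it.

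**Figure D2:**
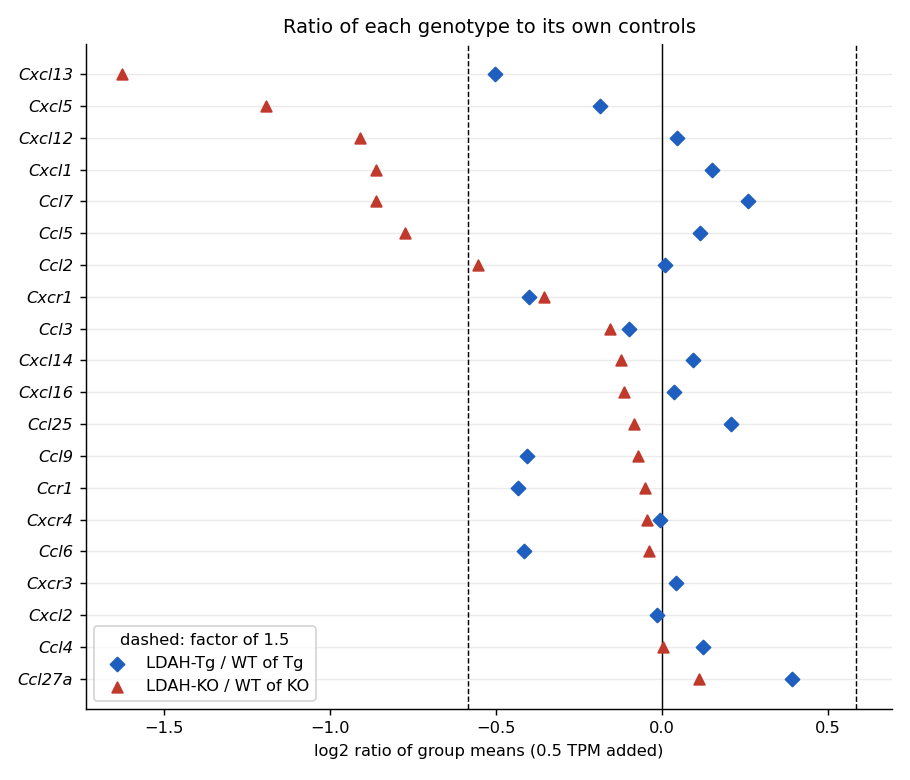
Log2 ratio of the group means (LDAH-Tg over its WT controls and LDAH-KO over its WT controls, 0.5 TPM added) for the members reported by name that had a ratio, with dashed lines at a factor of 1.5. 6 KO points lie beyond the lower line, from *Ccl5* at -0.77 to *Cxcl13* at -1.63, and 0 of the Tg points pass either line.

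For 5 of the 6 genes the WT controls of LDAH-KO had the highest mean of the 4 groups, and for 4 of them LDAH-KO was within the factor of the WT controls of LDAH-Tg. In the controls and LDAH-Tg PM of the other line, *Cxcl1* was at 8.18 and 9.13 TPM. *Cxcl12* was at 2.49 and 2.59 TPM, *Cxcl5* at 2.24 and 1.91 TPM and *Ccl7* at 3.77 and 4.61 TPM. The exceptions to the second count were *Cxcl13*, at 6.68 and 4.57 TPM, and *Ccl5*, at 2.89 and 3.17 TPM, which were lower in LDAH-KO PM than in the controls of the other line by more than the factor. *Cxcl10* was at 1.02 and 0.872 TPM. Over all 207 genes that were lower by the factor in LDAH-KO PM, 74.4% had their highest mean in the WT controls of LDAH-KO and 53.6% had LDAH-KO within the factor of the other controls, so this ordering was common among the lower genes. The 6 ligands and the 207 genes were both picked for a higher mean in the WT controls of LDAH-KO than in LDAH-KO PM. That choice itself favours a highest mean in those controls, so nothing is read from these counts.

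**Figure D3:**
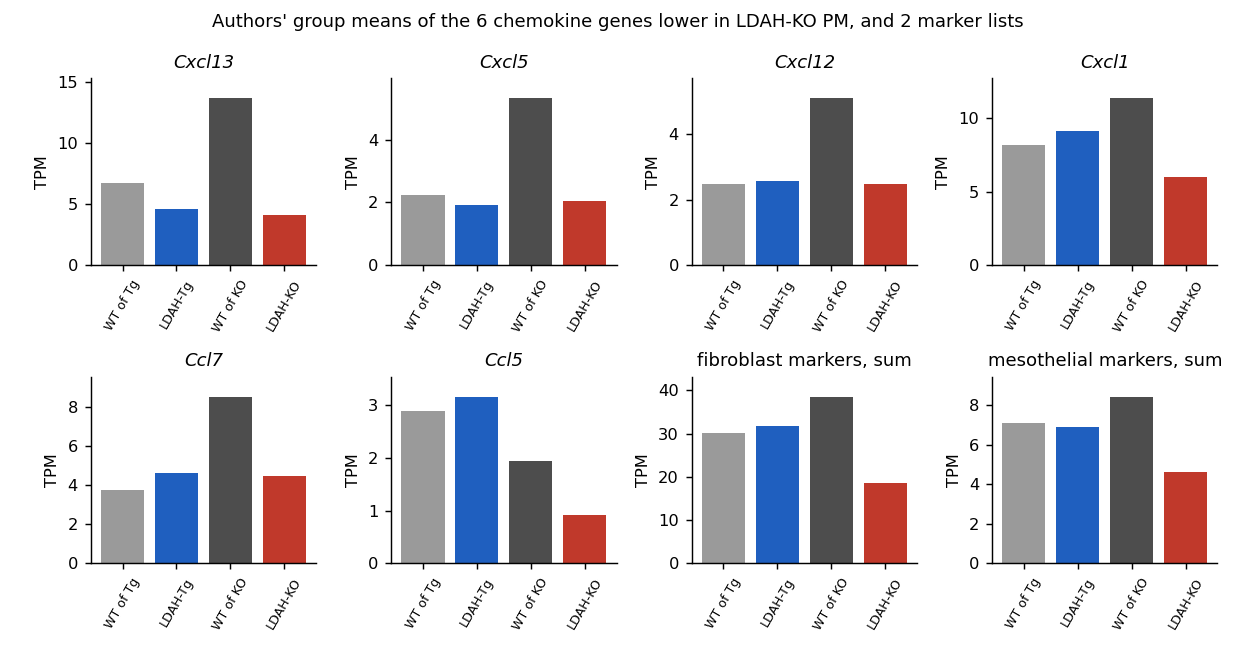
Mean TPM in the 4 groups for the 6 ligands past a factor of 1.5 on the lower side in LDAH-KO PM and for the summed fibroblast and mesothelial markers described in the next paragraph; each axis starts at 0 and each bar is a group mean (or a sum of them) with no error available. The WT controls of LDAH-KO have the tallest bar in every panel except that of *Ccl5*, whose highest value is 3.17 TPM in LDAH-Tg PM.

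Some genes used here as markers of other cell types were also lower in LDAH-KO PM. Of 6 fibroblast marker genes, 5 had a ratio and all 5 were past the factor on the lower side in LDAH-KO PM, with a median log2 ratio of -1.17. Their summed level was 18.7 TPM in LDAH-KO PM and 38.5 TPM in their controls, and 31.9 and 30.05 TPM in LDAH-Tg PM and theirs, and no marker of this list was at 0. Of all genes under 20 TPM, 3.32% were lower by the factor in LDAH-KO PM. Among the 5 are *Col1a1* and *Col1a2*. By qPCR, the paper reports both as higher in LDAH-Tg PM and lower in LDAH-KO PM. It also reports both as higher in LDAH-Tg macrophages captured from lesions, and treats them as genes of macrophages, so they do not mark fibroblasts alone. In LDAH-Tg PM 1 of the 5 markers with a ratio, *Col1a1*, was higher by the factor, at 3.26 TPM in controls and 5.44 TPM with the transgene. Over all genes, 1.26% were higher by the factor in LDAH-Tg PM. The other markers with a ratio stayed within the factor there, as did the 6 ligands. Of 6 mesothelial marker genes, 3 had a ratio and 2 were lower by the factor, with summed levels of 4.63 TPM in LDAH-KO PM and 8.42 TPM in controls, against 6.87 and 7.08 TPM in the other line. No marker of the mesothelial list was at 0 either. T- and NK-cell markers summed to 0.0524 to 0.270 TPM, with *Ncr1* at 0 in all groups. Neutrophil markers summed to 78.4 to 127 TPM, nearly all of it *S100a8* and *Csf3r*, and *Ly6g* was at 0 in all groups. B-cell, dendritic-cell, eosinophil, mast-cell and endothelial markers each summed to at most 4.45 TPM in any group. The part of these cells in the lower ligand values was not tested. In RNA of whole cultures, fewer cells of a type and less RNA per cell cannot be told apart.

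In LDAH-Tg PM, 0 of the 21 members with a ratio passed the factor in either direction, where 1.26% of 11395 genes were higher and 0.685% were lower by it. The median log2 ratio of the members was 0.01 and that of all genes was 0.002, with 11 members above 0 and 10 below. The lowest ratios were those of *Cxcl13* (-0.50), *Ccr1* (-0.43), *Ccl6* (-0.42), *Ccl9* (-0.41) and *Cxcr1* (-0.40), and these 5 lay below the central 90% of all genes, which ran from -0.32 to 0.38. *Ccl27a* (0.39) lay above it. *Ccr1* and its ligand genes *Ccl6* and *Ccl9* thus all had lower means, by less than the factor, while the ratios were -0.10 for *Ccl3* and 0.13 for *Ccl4*. The ligand sum, most of it *Ccl6*, was 1689 TPM in controls and 1391 TPM with the transgene, and the receptor sum was 197 and 164 TPM. *Ccl2* had a log2 ratio of 0.01, *Ccl7* of 0.26, *Cxcl1* of 0.15, *Cxcl5* of -0.19, *Cxcl12* of 0.05 and *Ccl5* of 0.11, so none of the ligands that were lower in LDAH-KO PM were higher by the factor in LDAH-Tg PM.

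The 2 comparisons have separate controls, and 19 members had a ratio in each. Of these, 8 were above 0 with the transgene and below 0 in the knockout, 1 was the reverse, 8 were below 0 in both and 2 (*Ccl4* and *Ccl27a*) were above 0 in both. Passing the factor in both genotypes was seen for 0 members and for 31 of 10858 genes. The share with the first pattern was 42.1% of the members and 32.3% of all genes, and most of these ratios are within the factor. Median-ratio scaling raised every member ratio of the knockout comparison. It put *Ccl6* (0.038), *Cxcr4* (0.031), *Ccr1* (0.025) and *Ccl9* (0.006) above 0 there. The counts of the reverse pattern and of members below 0 in both thus depend on the scaling.

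The WT controls of each line differed by the factor at more genes than LDAH-Tg or LDAH-KO PM did from their own. Of 21 members with a ratio, 7 were higher by the factor in the controls of LDAH-KO, where 26.5% of all 11404 genes were, and 3 were lower, where 12.1% were. With median-ratio scaling the shares over all genes were 18.2% higher and 18.4% lower, with 7 and 5 of the members, so the split between directions depends on the scaling and nothing is read from the counts of members. *Ccl9* was higher in the controls of LDAH-KO by a log2 ratio of 1.67, *Cxcl5* by 1.09 and *Ccl7* by 1.08, followed by *Cxcl13* (0.98), *Cxcl12* (0.91) and *Ccr1* (0.79). *Ccl4* (-1.57), *Ccl3* (-1.002) and *Cxcl2* (-0.67) were lower. The central 90% of all genes lay between -0.98 and 1.27. Of the members, only *Ccl9* lay above this range and only *Ccl3* and *Ccl4* below it, so the other differences named here lie within the usual spread between the lines. Thus *Ccl3* and *Ccl4*, which lie side by side, differed between lines in the direction opposite to *Ccl9*, while *Ccl6* (0.36) stayed within the factor. The median over all genes was itself at 0.17, and at -0.0006 with that scaling. A difference between lines and one between their sets of samples cannot be told apart.

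Within the gene clusters, levels and ratios varied from one gene to the next. In the run of 11 Ccl genes on chromosome 11, *Ccl2*, *Ccl7* and *Ccl5* had log2 ratios of -0.55 to -0.86 in LDAH-KO PM, while *Ccl9*, *Ccl6*, *Ccl3* and *Ccl4* lay between -0.16 and 0.004. On chromosome 5, *Cxcl5* and *Cxcl1* were lower by the factor, and *Cxcl3* and *Cxcl15* between them were at most 0.0846 TPM in any group. Farther along, *Cxcl9* and *Cxcl11* were at most 0.0107 TPM, although *Cxcl10* between them reached 1.18 TPM. On chromosome 9, *Ccr1* was expressed, and *Ccr9*, *Cxcr6*, *Xcr1*, *Ccr3* and *Ccr2* in the same run stayed under 1 TPM. Each cluster thus held expressed members beside ones near 0.

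**Figure D4:**
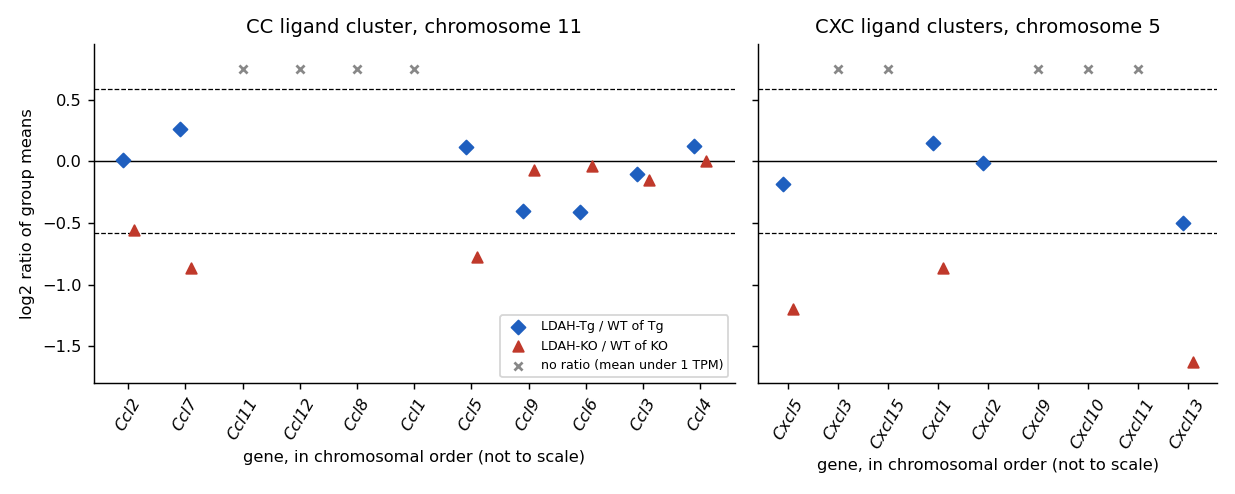
Log2 ratios of LDAH-Tg and LDAH-KO against their own WT controls for the ligand genes clustered on chromosomes 11 and 5, in chromosomal order and not to scale, with dashed lines at a factor of 1.5 and crosses where neither comparison gives a ratio. On chromosome 11 the KO points drop at *Ccl2*, *Ccl7* and *Ccl5* and lie near 0 from *Ccl9* to *Ccl4*.

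Genes that act upstream and downstream of chemokines, from lists of their own, stayed within the factor. Of 31 genes of receptor signalling, such as G protein subunits, arrestins and the integrin chains that act on adhesion, 0 passed the factor in either comparison, and their median log2 ratios were -0.04 with the transgene and -0.07 in the knockout. The largest were *Gnai3* (-0.44), *Itgam* (-0.39), *Itgb2* (-0.31) and *Arrb2* (0.29) in LDAH-Tg PM, and *Plcb2* (-0.36) and *Itgam* (-0.33) in LDAH-KO PM. Of 16 inducers, the NF-kB, STAT and IRF factors with the cytokines that act through them, 13 had a ratio and 0 passed the factor in either comparison. Their medians were 0.06 and -0.14, with *Stat2* at 0.21 in the first comparison and -0.36 in the second. Of 7 genes that control the decay of chemokine messages, 0 passed it, with *Zc3h12a*, which encodes a ribonuclease of inflammatory messages, at 0.37 in LDAH-Tg PM and *Zfp36l1*, which encodes a protein that promotes decay, at -0.40 in LDAH-KO PM. Since 1.83% of all genes were lower and 0.39% higher by the factor in LDAH-KO PM, counts of 0 in lists of this size are near the background and say nothing about these genes as groups.

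Several members share their position with a gene on the opposite strand, *Ccl6*, *Ccl2*, *Cxcl16*, *Ccl27a*, *Ccl25* and *Cxcl10*. The libraries were made with a stranded kit, but whether the counting used strand is not given in the sources used here, so their values may include reads of the partner. The 6 ligands that were lower in LDAH-KO PM by the factor have no such overlap.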

How the data were processed

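The table holds levels of 48432 genes in TPM, deposited by the authors as 1 mean per group of 4 samples, with each column scaled to 1000000, and 1 further line of column totals that names no gene and was left out. Per the labels and the study's methods, polyadenylated RNA was sequenced as pairs from a stranded kit, and the submitters' processing notes list STAR 2.4.2a, Trimmomatic and bcl2fastq 2.17.1.14, as well as Cuffdiff 2.2.1, DESeq2 and HTSeq, and the build mm10 (GRCm38). Which of these made the TPM is not given in the sources used here. Values of single samples were not analysed here, so depth is unknown and no test, SD or interval was possible. The test planned for single samples was replaced by the description also planned for means.

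Here, log2 ratios of the means were computed after adding 0.5, for genes with a mean of at least 1 TPM over a pair of groups and no group listed at 0 (Python 3.11.15, numpy 2.4.6, pandas 2.3.3, with figures in matplotlib 3.10.9). Such ratios understate the change of low genes. Genes past a factor of 1.5 were counted, and the same counts over all genes are given beside those of the members. Positions come from GENCODE M21, matched by gene ID for all 60 members, and start-site sequence from RefSeq. With 1 exception, every member that reached 1 TPM in a group is named, members over 0.1 TPM in a group are named, a few with values, and of each other list at most the 4 largest ratios per comparison. The members, lists and limits were chosen with earlier results of these data known. For each comparison 9 alternatives were tried. The values of 1 member and of 1 gene of another list are not reported here, although the counts include them.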

Additional observations from a re-analysis of the deposited data

How the results depend on the processing

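In LDAH-KO PM 6 members were lower by the factor of 1.5 with pseudocounts of 0.1 and 1, without a pseudocount, with no filter on low values, with genes at 0 kept, and with median-ratio scaling or quantile normalization. Over all genes, 1.16% to 2.5% were lower in these settings. With a mean TPM of at least 5, where fewer genes are tested, the count was 3 of 15 members, against 0.713% of 8979 genes. With a factor of 2 it was 2 of 19 members, *Cxcl13* and *Cxcl5*, against 0.407% of all genes. Over these alternatives the log2 ratio ranged from -1.74 to -1.50 for *Cxcl13*, -1.04 to -0.77 for *Cxcl12* and -1.06 to -0.61 for *Ccl5*. Among all genes the split in LDAH-KO PM was 44 higher and 207 lower as reported, 61 and 161 with median-ratio scaling and 80 and 131 with quantile normalization. Between the control lines, the median log2 ratio of the members was 0.19 as reported, 0.038 with no filter, 0.36 at a mean of 5 TPM or more, and 0.022 with median-ratio scaling, which removes the shift of all genes. There 5 rather than 3 of 21 members were lower, against 18.4% of all genes. With a factor of 2, 4 rather than 7 members were higher, against 10.3% of all genes. Of 167 values of single members under the alternatives in LDAH-KO PM, 4 were no longer past the factor, as were 0 of 182 in LDAH-Tg PM and 5 of 183 between the control lines, where 3 newly passed it. Of the values past the factor, 0 passed it in the opposite direction. Some ratios near 0 did change sign, such as that of *Ccl6* in LDAH-KO PM, at -0.039 as reported and 0.038 with median-ratio scaling. Leaving out each replicate was not run because the table holds group means. No paired analysis was possible because the columns are group means that carry no replicate numbers. The means of 4 samples give no spread, and the counts behind a value are unknown, so the lowest members are the least precise.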

Other observations

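Relatives of the chemokine system that the symbol rule does not take were measured as well. Of 7 such genes, 5 had a ratio in each comparison and 0 passed the factor of 1.5 in LDAH-Tg or LDAH-KO PM. Over all genes, 1.26% were higher and 0.685% lower by it in LDAH-Tg PM, and 0.39% and 1.83% in LDAH-KO PM. A count of 0 among 5 genes is thus near the background and says nothing about them as a group. *Mif*, which encodes a cytokine that binds CXCR2 and CXCR4, was at 556 and 640.0 TPM in the controls and LDAH-Tg PM, and at 282 and 299.8 TPM in the controls and LDAH-KO PM, above every classical ligand gene except *Ccl6* in the first pair. *Pf4*, which encodes platelet factor 4, was at 55.2 and 47.8 TPM, and at 53.8 and 60.3 TPM. *Ccrl2*, which encodes a chemerin-binding receptor, was at 91.9 and 76.4 TPM, and at 129.7 and 106 TPM, which is above *Cxcr4* in every group. *Cklf*, which encodes a chemokine-like factor, was at 99.7 and 89.7 TPM, and at 51.3 and 66.8 TPM, a log2 ratio of 0.38 in LDAH-KO PM. *Ppbp* and *Rarres2*, for a platelet chemokine and for chemerin, were below 1 TPM.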
